A study of Mus musculus with 33 samples.

Results

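The genes described here are 46 cell cycle genes, sorted by the phase in which their products act. They were listed by symbol, and each symbol matched 1 row of the deposited table, which holds 55401 genes in all. All 46 were among the 20073 genes that had enough counts to be tested. The set holds 20 genes of DNA replication, 18 genes of mitosis, the E cyclins Ccne1 and Ccne2, the 3 D cyclins Ccnd1, Ccnd2 and Ccnd3, the inhibitors Cdkn1a and Cdkn1b, and the transcription factor gene E2f1. Members were listed by what their products do, with no threshold on a measured value but with earlier results of these data known. The libraries are polyadenylated RNA of Mus musculus, each labelled as frontal bone of the calvaria, a flat bone of the skull roof. They cover 11 embryonic stages, which are E8.5, E9 and E9.5, then E10, E10.5 and E11, then E11.5 with E12, and last E12.5, E13.5 and E14.5. Each stage has 3 libraries, 33 in all. The groups differ by stage alone in the labels, which name no strain, genotype or treatment. No label says whether the 3 libraries of 1 stage are from separate embryos or litters, so the p-values measure the spread between these libraries, which may be technical.

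A dividing cell passes from the first gap phase, G1, into DNA synthesis, S, then through G2 into mitosis, M. In G1 the D cyclins with Cdk4 or Cdk6, and then the E cyclins with Cdk2, phosphorylate the retinoblastoma family of pocket proteins, which frees E2F factors to transcribe genes of DNA replication. Many mitotic genes are transcribed later, under Mybl2 and Foxm1, and a repressor complex that contains pocket proteins holds both classes down in resting cells through E2F sites and through the cell cycle homology region, CHR. Cdkn1a (p21) and Cdkn1b (p27) bind cyclin and kinase pairs and inhibit them. In the skull roof, dividing mesenchyme precedes the differentiation of osteoblasts, the cells that lay down bone.

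The total count per library lay between 14516518 and 19964404. The label was checked against osteoblast markers. Runx2, the factor that specifies osteoblasts, stood at 0.491, 0.710 and 0.526 CPM (counts scaled to library size) at E8.5 against 41.8, 47.8 and 45.6 at E14.5, and Dmp1 had no count at E8.5. The 12 neural progenitor markers summed to 988 to 1002 CPM at E8.5, 1933 to 2086 at E12.5, 1262 to 1478 at E13.5 and 299 to 313 at E14.5, so that these markers were present in libraries labelled frontal bone at every stage and lowest at the last. Libraries a and b of E12 and library c of E13.5 stood above the rest in the share of ribosomal protein genes. These genes took 7.36% ± 2.47 (SD, n = 3) of the counts at E12, 2.83% ± 0.05 at E11.5 and 5.35% ± 0.18 at E8.5. Library c of E12, at 4.86%, lay below every library of E8.5 in this share. At E13.5 that share reached 6.97% in library c. The letters a, b and c only name the 3 libraries of a stage here, and no label says that they pair libraries across stages.

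All values below are CPM after TMM scaling, in the order a, b and c where 3 are given. Fold changes are on the log2 scale with an approximate standard error, and a gene is said to have risen or fallen where edgeR's quasi-likelihood test, adjusted by Benjamini and Hochberg's method over all genes tested, gave an adjusted p below 0.05. All 46 genes passed the test of any change over the 11 stages, which 95.3% of all genes passed. In bulk RNA, fewer dividing cells and less of each RNA per dividing cell cannot be told apart.

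Between E8.5 and E14.5 the genes of replication and mitosis fell, and the replication genes fell further. Of the 46 genes 45 changed, where 74.6% of all genes did. Of these 43 fell, where 33.5% of all genes did, and 2 rose, where 41.1% did, and Mki67 did not pass. In 44 of the 46 genes the libraries of E8.5 and E14.5 did not overlap, as in 80.4% of all genes. All 20 replication genes fell, with a median change of -1.86, and 17 of the 18 mitosis genes fell, with a median of -1.18. The median over all genes tested was 0.16. The 2 genes that rose were the inhibitors Cdkn1a and Cdkn1b. The 46 genes together took 1.19% ± 0.01 (SD, n = 3) of the counts at E8.5 and 0.616% ± 0.005 at E14.5.

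The 9 licensing genes load the replicative helicase onto DNA in G1, and all of them fell, by a median of 2.19 and over a narrow range from -2.49 to -1.71. Mcm7, a subunit of the MCM2-7 helicase, stood at 807, 777 and 777 CPM at E8.5, against 147, 130.3 and 142 at E14.5. Its log2 change was -2.49 ± 0.08 (adjusted p = 6.48e-22). Mcm2, of the same ring, changed from 594, 593 and 608 to 136, 114 and 118 CPM, by -2.29 ± 0.13 (adjusted p = 6.86e-16). In both genes each library of E14.5 lay under every library of E8.5 by a wide margin. Orc1, a subunit of the complex that marks origins, had the lowest level per kilobase of the replication genes, a mean of 8.89 CPM per kilobase of exonic length over the 11 stages. Pcna, the sliding clamp of the DNA polymerases, had the highest, 226.

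Among the 4 genes that activate the helicase, Mcm10 changed most, from 179, 180.5 and 184 to 37.5, 34.6 and 39.3 CPM, by -2.28 ± 0.07 (adjusted p = 3.11e-22). Cdc45, Gins1 and Gins2, subunits of the active helicase, changed by -1.38, -1.51 and -1.29. The 3 genes of DNA synthesis changed less alike. Pcna and Pole, the catalytic subunit of polymerase epsilon, changed by -1.63 and -1.38, and Pola1, the catalytic subunit of the primase-bound polymerase, by -0.75 ± 0.09 (adjusted p = 1.57e-08).

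The 4 genes of nucleotide supply held both ends of the range. Rrm2, the regulated small subunit of ribonucleotide reductase, stood at 493, 481 and 493 CPM at E8.5, against 51.4, 56.6 and 56.9 at E14.5. With a change of -3.15 ± 0.06 (adjusted p = 2.66e-26) it fell more than any other of the 46 genes. Rrm1, the large subunit of the same enzyme, changed from 479, 479.7 and 464 to 264, 258 and 269.8 CPM, by -0.85 ± 0.06 (adjusted p = 5.98e-14). The subunits of 1 enzyme thus changed by very different amounts. Tyms, thymidylate synthase, changed by -0.79 ± 0.08 (adjusted p = 4.12e-10). Tk1, thymidine kinase, stood at 122, 113 and 114 CPM at E8.5, against 95.3, 87.4 and 88.2 at E14.5, a change of -0.37 ± 0.10 (adjusted p = 0.00148). Its direction depends on the scaling: with library totals alone, without TMM factors, it was 0.068 (adjusted p = 0.495).

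Among the mitosis genes the kinases and the checkpoint genes fell most. Plk1, a kinase of mitotic entry and spindle assembly, stood at 219, 209 and 208 CPM at E8.5, against 39.6, 40.2 and 37.3 at E14.5, a change of -2.44 ± 0.07 (adjusted p = 1.98e-22). Cdc20, which activates the ubiquitin ligase that starts anaphase, changed from 347, 343 and 334 to 76.5, 63.9 and 67.3 CPM, by -2.30 ± 0.11 (adjusted p = 1.39e-17). Aurka, a kinase of the spindle poles, changed by -2.15 ± 0.08, and Bub1, a kinase of the spindle checkpoint, by -1.74 ± 0.10. In none of these 4 genes did a library of E14.5 reach the level of a library of E8.5. The 4 genes of the A and B cyclins and their kinase, Ccna2, Ccnb1, Ccnb2 and Cdk1, all fell, with a narrower range from -1.39 to -0.85.

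The least change in mitosis was in genes of the kinetochore, of the spindle motors and of chromosome structure. Kif11, the motor that separates the spindle poles, changed from 243, 257 and 281 to 153, 166 and 168 CPM, by -0.68 ± 0.08 (adjusted p = 1.79e-08). Cenpe, a kinetochore motor, changed by -0.45 ± 0.13 (adjusted p = 0.00293), and by -0.02 (adjusted p = 0.913) with library totals alone. Mki67, which encodes the widely used proliferation antigen Ki-67, stood at 493, 548 and 578 CPM at E8.5, against 450.0, 531 and 500.2 at E14.5. These values overlap. The difference was -0.13 ± 0.16 (adjusted p = 0.474), and Mki67 was the only member with no call in this comparison. It passed, at -0.36 (adjusted p = 0.0031), once a trend with gene length was removed. Per kilobase, Cdc20 had the highest mean level of the mitosis genes over the 11 stages, 118 CPM per kilobase, and Cenpf, a large kinetochore protein, the lowest, 18.4.

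**Figure D1:**
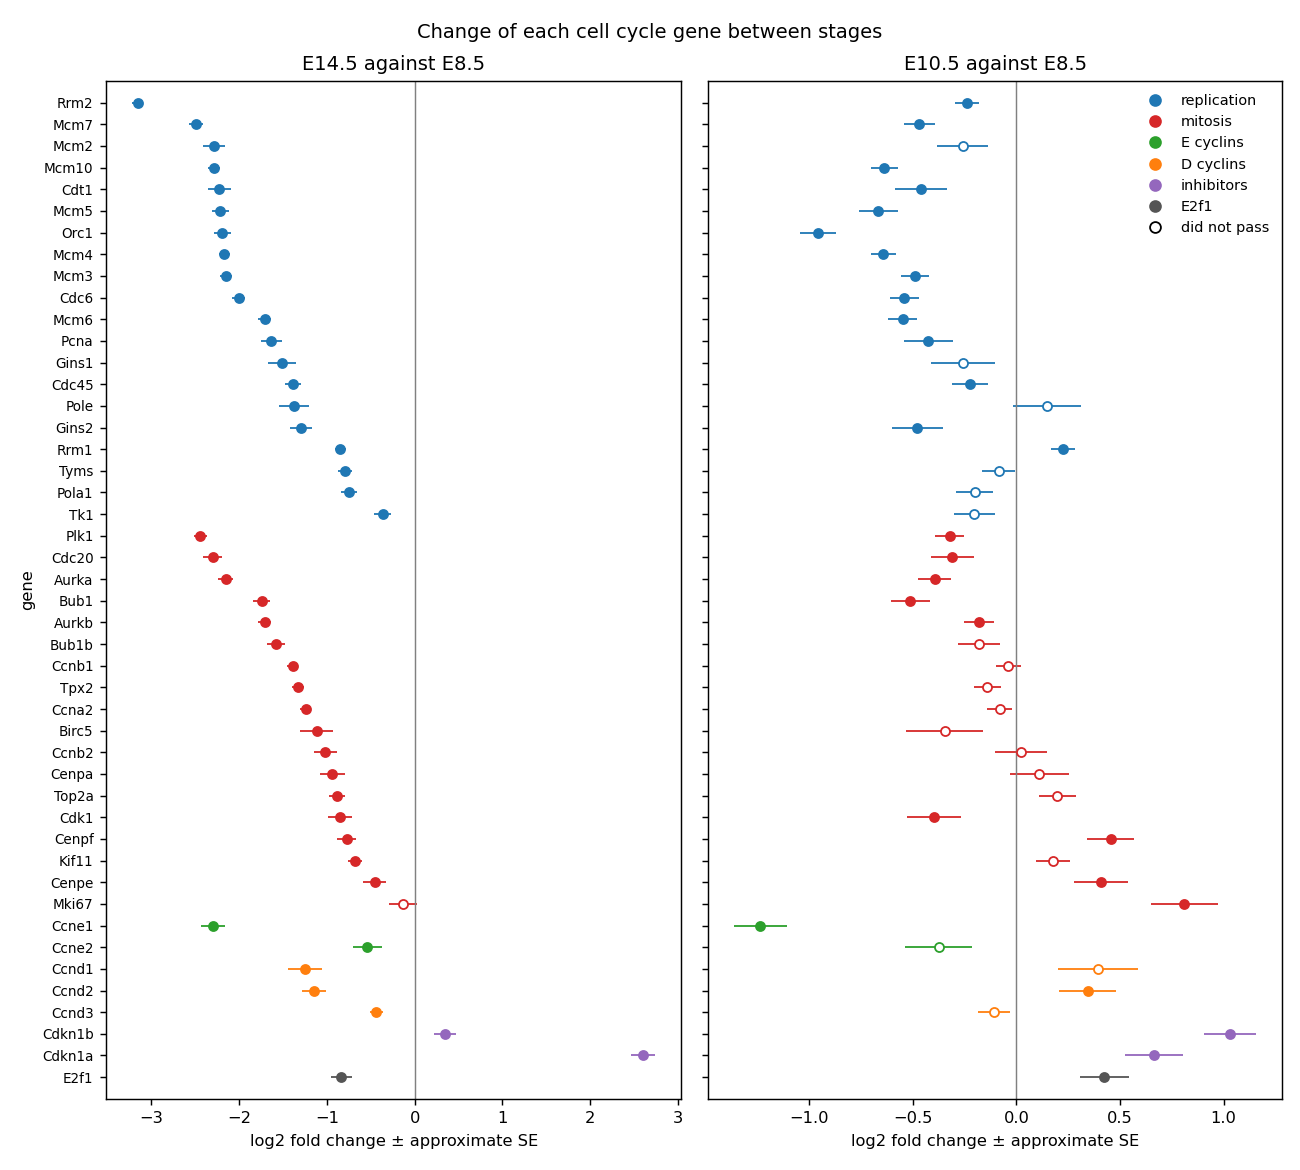
Log2 fold change of each of the 46 genes, on the horizontal axes, with its approximate standard error as a bar, for E14.5 against E8.5 (left) and E10.5 against E8.5 (right, with its own scale). Filled points passed the test and open points did not. Rrm2 lies farthest to the left at -3.15, Cdkn1a farthest to the right at 2.60, and at E10.5 the mitosis genes lie on both sides of 0.

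Longer genes fell less. Over the 46 genes the change between E8.5 and E14.5 went with exonic length, with a Spearman correlation of 0.47, while over 20073 genes it was 0.01. These points share the same libraries, and genes are not independent replicates. The change went with the GC content of the longest transcript as well, at -0.35 over the 46 genes and -0.07 over 20046 genes, and from E10.5 to E12.5 at -0.49 over the 46 genes, where length gave 0.39. The part of gene length or GC content in the difference between members was not tested. Markers of other cells moved over the same interval. The 6 genes of an early embryo list, of which 4 fell and 1 rose, summed to 1534 to 1594 CPM at E8.5 and 23.9 to 25.3 at E14.5, and the 10 osteoblast markers, of which 7 rose, to 73.1 to 78.9 and 2435 to 2623. Of the 12 neural progenitor markers 10 fell and 2 rose, and all 12 neuron markers rose, from 221 to 234 to 817 to 846 CPM in sum. Epidermis markers (8 genes, 6 higher and 2 lower) summed to 227 to 246 and 1105 to 1269.7, and skeletal muscle markers (9 genes, all higher), of which Myog had no count at E8.5, to 9.12 to 10.1 and 303 to 338. All 9 macrophage markers rose, from 1.23 to 2.06 to 163 to 179 CPM in sum, with Tyrobp and C1qa at no count at E8.5. The part of this change in tissue makeup in the fall of the cell cycle genes was not tested.

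Promoters are shown for the members that fell most, because the letters found in front of replication genes differed from those in front of mitosis genes. RefSeq windows of GRCm38.p6, from 250 bases before to 50 bases after the annotated start, were present in the table used for 36 of the 46 genes. They were searched on both strands for the E2F letters TTTCCCGC, TTTCGCGC, TTTGCCGC and TTTGGCGC and for the CHR letters TTTGAA and TTTAAA. E2F letters were found in 8 of 16 replication genes with a window and 1 of 15 mitosis genes (6.67%), against 2.6% of the 27025 genes with a window and 2.26% of all 32851 windows. CHR letters were found in 14 of 15 mitosis genes (93.3%) and 5 of 16 replication genes (31.2%), against 30.6% of genes and 27.6% of windows. In the wider lists used further on the shares were less far apart: E2F letters were in 9 of 34 replication genes (26.5%) and 4 of 41 mitosis genes (9.76%), and CHR letters in 27 of 41 mitosis genes (65.9%) and 8 of 34 replication genes (23.5%). In 12 of the 14 mitosis genes a CHR match began within 60 bases of the start, and in 2 of the 5 replication genes. This count was not made over all genes, so it has no background beside it. E2F letters were found in Cdc6, Cdt1, Mcm3, Mcm5, Mcm6, Mcm7, Orc1 and Pola1, and in Mcm5 and Mcm6 matches on the 2 strands overlap. A match is a string of letters and not a shown binding site.

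The stretches below run from 170 bases before the start to 30 bases after it, in the direction of the gene, with the matches in capitals, so that the last 30 bases lie in the first exon. Rrm2 and Mcm7 are the replication genes, and Plk1 and Cdc20 the mitosis genes, with the largest falls among those with a match. Orc1, Cdk1 and Ccnb1 were added after the matches were seen: Orc1 for its match close to the start, Cdk1 because it alone of the mitosis genes holds both motifs, and Ccnb1 as a B cyclin. The stretches are Rrm2 at chr12:24708084-24708283 on the plus strand, Mcm7 at chr5:138171854-138172053 on the minus strand, Plk1 at chr7:122159265-122159464 on the plus strand, Cdc20 at chr4:118437314-118437513 on the minus strand, Orc1 at chr4:108579284-108579483 on the plus strand, Cdk1 at chr10:69352883-69353082 on the minus strand and Ccnb1 at chr13:100786457-100786656 on the minus strand.
Rrm2: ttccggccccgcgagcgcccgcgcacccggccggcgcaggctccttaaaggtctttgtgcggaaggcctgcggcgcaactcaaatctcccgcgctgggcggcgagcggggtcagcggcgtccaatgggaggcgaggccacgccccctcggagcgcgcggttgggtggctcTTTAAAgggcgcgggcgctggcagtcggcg
Mcm7: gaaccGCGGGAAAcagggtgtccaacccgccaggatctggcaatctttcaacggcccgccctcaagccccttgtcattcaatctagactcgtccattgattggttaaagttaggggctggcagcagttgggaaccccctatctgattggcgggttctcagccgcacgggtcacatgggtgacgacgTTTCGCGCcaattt
Plk1: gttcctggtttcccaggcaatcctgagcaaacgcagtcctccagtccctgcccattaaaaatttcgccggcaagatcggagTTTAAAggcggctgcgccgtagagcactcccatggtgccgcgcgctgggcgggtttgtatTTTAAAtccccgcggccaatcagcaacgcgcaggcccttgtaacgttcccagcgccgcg
Cdc20: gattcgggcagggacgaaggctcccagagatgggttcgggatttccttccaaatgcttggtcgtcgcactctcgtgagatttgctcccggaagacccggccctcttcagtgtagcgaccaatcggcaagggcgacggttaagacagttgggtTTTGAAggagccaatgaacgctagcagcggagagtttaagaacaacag
Orc1: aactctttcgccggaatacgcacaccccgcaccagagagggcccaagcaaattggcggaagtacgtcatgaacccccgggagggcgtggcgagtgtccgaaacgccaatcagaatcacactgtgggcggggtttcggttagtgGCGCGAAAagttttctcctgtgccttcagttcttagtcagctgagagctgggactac
Cdk1: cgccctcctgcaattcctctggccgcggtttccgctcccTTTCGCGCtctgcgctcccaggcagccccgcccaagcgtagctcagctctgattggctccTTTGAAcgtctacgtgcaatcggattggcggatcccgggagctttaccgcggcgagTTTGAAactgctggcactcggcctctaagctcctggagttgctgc
Ccnb1: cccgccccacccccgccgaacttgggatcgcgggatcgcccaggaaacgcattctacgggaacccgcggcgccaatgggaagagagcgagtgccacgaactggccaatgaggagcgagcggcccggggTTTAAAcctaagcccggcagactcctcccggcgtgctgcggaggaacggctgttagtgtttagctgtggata
Mcm7 shows an E2F match at each end of its stretch, beginning 165 bases before the start and at base 17 after it, and Orc1 shows 1, beginning 27 bases before the start. Plk1 shows CHR letters beginning 89 and 29 bases before the start, and a further match begins at base 31 after it, just beyond the stretch. Cdc20 has 1, beginning 18 bases before the start, and Ccnb1 has 1, beginning 42 bases before it. In Cdk1 the E2F letters begin 131 bases before the start, and CHR letters begin 71 and 15 bases before it. Rrm2, whose RNA fell most of the 46, has no E2F match in its window and TTTAAA at the start itself.

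By E10.5 more replication genes than mitosis genes had fallen. Between E8.5 and E10.5, 13 of 20 replication genes fell and 1 rose, with a median change of -0.44. Of the 18 mitosis genes 6 fell and 3 rose, with a median of -0.11, and the median over all genes was 0.09. In all, 28 of the 46 genes changed, where 49.5% of all genes did. Of these 20 fell, where 21.3% of all genes did, and 8 rose, where 28.2% did. The libraries of E8.5 and E10.5 did not overlap in 44 of the 46 genes, and in 64.7% of all genes. The difference between the groups was not tested. The count of 20 became 31 in a fit of the E8.5 and E10.5 libraries alone and 32 with a trend on gene length removed, and was 14 with library totals alone. Over all genes 4272 fell, against 6595 with the length trend removed and 2728 with library totals alone. That number is not given here for the fit of the E8.5 and E10.5 libraries alone. With totals alone the median of the mitosis genes turned to 0.064. Over the same interval all 12 neuron markers rose, from 221 to 234 to 1443 to 1490.3 CPM in sum, and so did all 9 macrophage markers, from 1.23 to 2.06 to 51.3 to 54.4. Of the neural progenitor markers 8 of 12 rose and 1 fell, of the red cell markers 7 of 8 rose, and of the epidermis markers 5 of 8 fell. The part of these changes in the members' values was not tested.

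Of the 13 replication genes that fell by E10.5, 8 were licensing genes, which number 9 in all. Orc1 stood at 67.2, 68.4 and 68.9 CPM at E8.5, against 37.5, 34.3 and 33.5 at E10.5, a change of -0.96 ± 0.09 (adjusted p = 2.49e-10), the largest of the replication genes. Rrm1 was the only replication gene that rose, from 479, 479.7 and 464 to 538, 562 and 563 CPM, by 0.23 ± 0.06 (adjusted p = 0.00156). That call was lost, at -0.083 (adjusted p = 0.539), with the length trend removed. In mitosis Bub1 fell most, by 0.51 ± 0.09 (adjusted p = 4.5e-05). Mki67 rose from 493, 548 and 578 to 958, 877 and 1004 CPM, by 0.81 ± 0.16 (adjusted p = 0.000113), and Cenpf and Cenpe rose with it, by 0.46 and 0.41. With the length trend removed the calls of Cenpf (0.035, adjusted p = 0.658) and Cenpe (0.17, adjusted p = 0.137) were lost, and that of Cenpe also without E8.5 library a (0.33, adjusted p = 0.0861), while Mki67 kept its call at 0.53. These 3 are among the longest genes of the set, and over the 46 genes the change went with exonic length at a Spearman correlation of 0.42, against 0.10 over all genes.

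The difference between the group means of log2 CPM gives a value for each library. Replication minus mitosis was -0.00, -0.05 and -0.06 in the 3 libraries of E8.5, -0.34, -0.35 and -0.42 at E10.5, -0.64, -0.64 and -0.61 at E11.5 and -0.44, -0.55 and -0.56 at E14.5. It was lower in every later library than in every library of E8.5, and most of the shift was present by E11. The stage of the highest mean differed as well. Of the 20 replication genes 17 were highest at E8.5, E9 or E9.5, against 9 of the 18 mitosis genes. The other 9 mitosis genes were highest at E10 (Mki67, Top2a, Cenpe, Cenpf and Kif11) or at E12 (Ccnb2, Cdk1, Birc5 and Cenpa). Over all genes tested 12.2%, 8.97% and 3.79% were highest at E8.5, E9 and E9.5, 4.61% at E10 and 19.1% at E12. Those highest at E10 are long genes, from 7461 (Kif11) to 15433 exonic bases (Cenpf). The E12 libraries lay far apart, with Birc5 at 230 ± 109 CPM (SD, n = 3). The part of gene length or of the E12 libraries in this split was not tested.

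**Figure D2:**
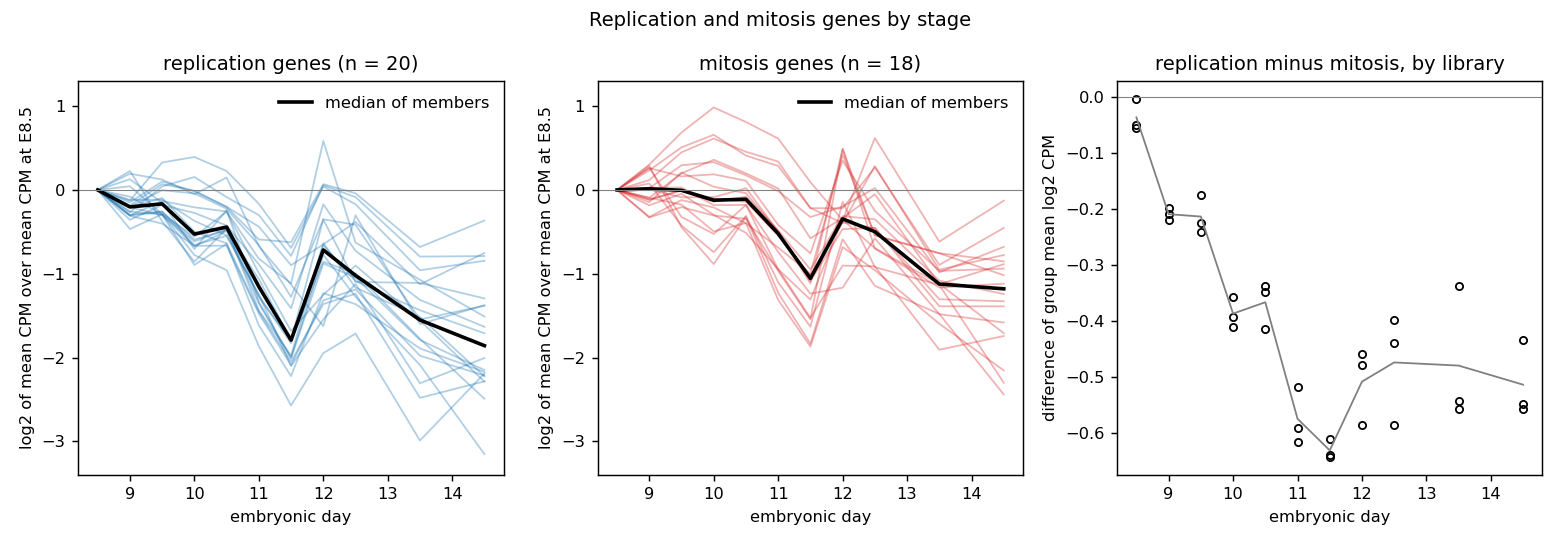
Change of each replication gene (left, blue) and each mitosis gene (middle, red) from its own mean at E8.5, in log2 units by embryonic day, with the median of the members in black; on the right, the difference of the group means of log2 CPM in each library (circles) and its mean (line). The replication genes were lower by E10, both groups dipped at E11.5 and stood higher at E12, and the difference moved from near 0 to about -0.6 at E11.5.

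Both groups stood lower at E12.5 than at E10.5, and this fall was already present at E11. The group mean of log2 CPM was 7.58 at E10.5, 6.90 at E11 and 7.10 at E12.5 for replication. For mitosis it was 7.94, 7.48 and 7.57. The mean at E12.5 was above that at E11 in 18 replication and 14 mitosis genes. Of the 46 genes 33 changed, where 35.9% of all genes did, and in 41 the libraries did not overlap, as in 54.2% of all genes. The number that fell was 31, where 17.2% of all genes did, and only Cdkn1a and Cdkn1b rose, where 18.8% did. The 31 were 15 replication genes, 12 mitosis genes, Ccne1, Ccnd1, Ccnd3 and E2f1. The calls of Pcna (-0.30, adjusted p = 0.0457) and Cenpa (-0.36, adjusted p = 0.0487) among them were lost under most alternatives. Median changes were -0.53 for replication and -0.36 for mitosis, against 0.03 over all genes. Rrm2 fell most of the replication genes, from 403, 415 and 425 to 206, 199.9 and 200.4 CPM, by 1.04 ± 0.06 (adjusted p = 6.76e-15), while Tk1 stood 0.16 higher without passing. In mitosis Plk1 fell most, by 0.82 ± 0.07 (adjusted p = 5.63e-11), and Cdk1, the kinase that drives entry into mitosis, showed -0.14 ± 0.13 (adjusted p = 0.425). Over this interval all 8 red cell markers fell, from 267 to 271 to 111 to 127 CPM in sum, 6 of 9 skeletal muscle markers rose and 1 fell, and 7 of 12 neural progenitor markers fell and 5 rose. Their part in the change of the members was not tested.

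From E12.5 to E14.5 nearly every gene of both groups fell, now by similar amounts. Of the 46 genes 42 changed, where 53.8% of all genes did, and in 44 the libraries did not overlap, as in 64.9% of all genes. The number that fell was 40, where 28.6% of all genes did, and Ccnd3 and Cdkn1a rose, where 25.3% did. The medians were -0.90 for the replication genes, of which 19 fell, and -0.85 for the mitosis genes, of which 17 fell, against -0.03 over all genes. Rrm2 changed from 206, 199.9 and 200.4 to 51.4, 56.6 and 56.9 CPM, by -1.88 ± 0.06 (adjusted p = 4.39e-21). Gins2 was the replication gene that did not pass, at -0.20 ± 0.13 (adjusted p = 0.193). In mitosis Cdc20 fell most, by 1.38 ± 0.11 (adjusted p = 4.05e-12). Cdk1 moved least, by -0.31 ± 0.13 (adjusted p = 0.0477), and lost its call under most alternatives, for example at -0.22 (adjusted p = 0.165) with DESeq2. All 12 neural progenitor markers fell over this interval as well, and 8 of the 10 osteoblast markers rose; their part in the fall of the members was not tested.

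The E cyclins, which act at the entry into S phase, did not move alike. Ccne1 stood at 149.8, 146 and 140.4 CPM at E8.5 but was lower at each of the next 2 stages, at a mean of 117 at E9 and 107 at E9.5. It then dropped to 61.1, 63.1 and 55.0 at E10 and 58.5, 62.4 and 64.0 at E10.5, and further to 29.0, 30.02 and 28.7 at E11 and 19.7, 23.9 and 22.7 at E11.5. The later values were 69.9, 63.1 and 43.5 at E12, 37.2, 31.8 and 36.6 at E12.5, 28.3, 29.2 and 42.5 at E13.5 and 29.9, 31.3 and 27.5 at E14.5. Every library of E8.5 lay above every library of the later stages, and E12 stood above both its neighbours. Between E8.5 and E10.5 it changed by -1.24 ± 0.13 (adjusted p = 2.24e-09), the largest change of the 46 genes there, and between E8.5 and E14.5 by -2.30 ± 0.13 (adjusted p = 1.28e-15).

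Ccne2 measured 45.4, 45.2 and 49.0 CPM at E8.5, 33.9, 35.1 and 38.7 at E10.5, 25.6, 22.0 and 17.4 at E11.5, 30.6, 32.7 and 21.5 at E12.5 and 27.9, 32.9 and 35.4 at E14.5. Means at the other stages were 38.7 at E9, 42.3 at E9.5, 41.2 at E10, 31.6 at E11, 38.7 at E12 and 24.9 at E13.5. Between E8.5 and E14.5 it changed by -0.54 ± 0.16 (adjusted p = 0.00375), a call lost with library totals alone, at -0.10 (adjusted p = 0.57). Per kilobase, Ccne1 was at 4.11 ± 0.30 times the level of Ccne2 at E8.5 (SD, n = 3) and at 1.23 ± 0.20 times at E14.5. No library of E11 or later reached the ratio of any library of E8.5.

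The D cyclins link growth signals to the start of the cycle, and each of the 3 followed its own course. Ccnd1 stood at 324, 332 and 327 CPM at E8.5, had a mean of 416 at E9, 349 at E9.5 and 336 at E10, and had its highest mean at E10.5 with 433, 422 and 438, overlapping with E9. At E11 it was at 323, 322 and 317 and at E11.5 at 129, 129 and 125, a step of -1.33 ± 0.20 (adjusted p = 7.15e-06). It was at 107, 174 and 337 at E12, where the 3 libraries lay far apart, at 242, 236 and 237 at E12.5, 183, 177 and 133 at E13.5 and 141, 136 and 136 at E14.5. Between E8.5 and E14.5 Ccnd1 changed by -1.25 ± 0.20 (adjusted p = 1.52e-06).

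Ccnd2 showed no such drop at E11.5. It stood at 713, 748 and 772 CPM at E8.5, at a mean of 804 at E9, 951 at E9.5 and 745 at E10, and at 953, 914 and 966 at E10.5. At E11 the values were 667, 680.3 and 678 and at E11.5 820.3, 806 and 816, and the step showed 0.27 ± 0.14 (adjusted p = 0.163). After 418, 417 and 673 at E12 it had its highest mean at E12.5 with 962, 975 and 965, overlapping with E9.5 and E10.5. It then stood at 753, 744 and 448 at E13.5, where library c lay apart, and at 348, 333 and 329.6 at E14.5. From E12.5 to E14.5 Ccnd2 changed by -1.52 ± 0.14 (adjusted p = 1.38e-10), and from E8.5 to E14.5 by -1.14 ± 0.14 (adjusted p = 1.47e-08). Its rise of 0.34 ± 0.14 by E10.5 (adjusted p = 0.0372) was lost with DESeq2, at 0.29 (adjusted p = 0.0859), and without any 1 of the 6 libraries of E8.5 and E10.5 (adjusted p from 0.0552 to 0.175).

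Ccnd3 was low in the middle stages and rose late. It stood at 209, 219 and 209 CPM at E8.5 but was highest at E9 with 283, 274 and 272. Means were 199 at E9.5, 162 at E10 and 197 at E10.5. It was at 99.8, 107 and 112 at E11, 77.1, 75.8 and 75.5 at E11.5, 140.1, 129 and 164 at E12 and 105, 96.7 and 107 at E12.5. The late values were 183, 179.9 and 214 at E13.5 and 157, 159 and 154 at E14.5. It changed by -0.94 ± 0.08 from E10.5 to E12.5 (adjusted p = 6.25e-11) and by 0.61 ± 0.08 from E12.5 to E14.5 (adjusted p = 1.19e-07), opposite to Ccnd2 in the same libraries. The net change from E8.5 of -0.44 ± 0.08 (adjusted p = 1.18e-05) was lost with library totals alone, at -0.00 (adjusted p = 0.98).

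Set against each other per kilobase, the D cyclins stood in changing proportions. Ccnd1 over Ccnd2 was 0.881 ± 0.031 at E8.5, 0.949 ± 0.018 at E11, 0.313 ± 0.007 at E11.5, 0.492 ± 0.009 at E12.5, then 0.816 ± 0.006 at E14.5 (SD, n = 3 each). Ccnd3 over Ccnd2 was 0.306 ± 0.014 at E8.5, 0.1003 ± 0.0009 at E11.5, 0.114 ± 0.007 at E12.5, then 0.500 ± 0.015 at E14.5. At E13.5 this ratio was 0.260, 0.259 and 0.511, so that library c stood near the E14.5 value and the other libraries did not. A ratio within a library needs no scaling between libraries. By level per kilobase Ccnd2 had the highest mean of the 3 at every stage but E9, where Ccnd1 and Ccnd2 did not differ beyond their spread (ratio 1.04 ± 0.06), and Ccnd3 had the lowest at every stage.

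E2f1, a transcription factor of replication genes, rose early and fell late. It stood at 58.1, 62.1 and 55.1 CPM at E8.5, at a mean of 65.0 at E9, 64.4 at E9.5 and 69.1 at E10, and had its highest mean at E10.5 with 77.6, 80.1 and 77.5, within the range of E12. It was at 50.4, 57.5 and 52.1 at E11, 37.8, 38.0 and 40.4 at E11.5, 75.7, 88.5 and 62.0 at E12, 51.3, 49.7 and 59.8 at E12.5, 31.6, 34.6 and 48.8 at E13.5 and 33.1, 32.6 and 32.6 at E14.5. Its change was 0.43 ± 0.12 by E10.5 (adjusted p = 0.00387), while 13 of the 20 replication genes fell, and -0.83 ± 0.12 by E14.5 (adjusted p = 4.48e-07).

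The inhibitors rose while most of the other members fell, and their courses parted after E12.5. Cdkn1a was scarce at E8.5, at 3.86, 4.26 and 4.56 CPM, and at 8.48, 9.41 and 7.53 at E9, with means of 8.64, 8.02 and 6.72 at E9.5, E10 and E10.5. It stood at 11.8, 13.54 and 11.4 at E11, 16.7, 16.1 and 14.7 at E11.5, 18.4, 21.0 and 19.0 at E12, 18.2, 21.3 and 21.9 at E12.5, 26.8, 27.2 and 32.7 at E13.5 and 28.3, 24.0 and 25.1 at E14.5. Every library from E11 on lay above every library before it. The change was 2.60 ± 0.13 from E8.5 to E14.5 (adjusted p = 7.9e-17), of which 1.61 ± 0.12 came between E10.5 and E12.5 (adjusted p = 1.05e-11). The last interval, 0.33 ± 0.11 from E12.5 to E14.5 (adjusted p = 0.0159), was lost without E12.5 library a (0.25, adjusted p = 0.112) or E14.5 library a (0.26, adjusted p = 0.0985). Even at its height Cdkn1a reached a mean of 8.13 CPM per kilobase at E13.5, against 102.8 for Ccnd2 at E12.5.

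Cdkn1b rose early and came back. It measured 34.0, 30.7 and 28.9 CPM at E8.5, 55.4, 51.3 and 49.1 at E9 and 64.6, 59.2 and 67.4 at E10.5, with means of 43.5 at E9.5 and 57.8 at E10. It was at 84.2, 69.2 and 83.7 at E11 and had its highest mean at E11.5 with 90.8, 90.3 and 86.8, overlapping with E12 and E12.5. It stood at 71.9, 86.3 and 90.3 at E12, 86.9, 91.7 and 69.2 at E12.5, 80.3, 85.8 and 60.8 at E13.5 and 32.7, 44.8 and 41.3 at E14.5. The changes were 1.03 ± 0.13 from E8.5 to E10.5 (adjusted p = 6.12e-08) and -1.06 ± 0.12 from E12.5 to E14.5 (adjusted p = 1.84e-08). The net rise from E8.5 to E14.5, 0.35 ± 0.13 (adjusted p = 0.0153), lost its call without E8.5 library c (0.29, adjusted p = 0.0749), without E14.5 library b (0.25, adjusted p = 0.113) or c (0.31, adjusted p = 0.052), and also with the length trend removed (0.17, adjusted p = 0.214). The rise from E10.5 to E12.5, 0.37 ± 0.12 (adjusted p = 0.016), was lost without E10.5 library b (0.32, adjusted p = 0.0796), E12.5 library a (0.34, adjusted p = 0.0633) or E12.5 library b (0.29, adjusted p = 0.103). Per kilobase Cdkn1b was at 5.81 ± 0.98 times Cdkn1a at E8.5 and at 1.21 ± 0.28 times at E14.5 (SD, n = 3 each).

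**Figure D3:**
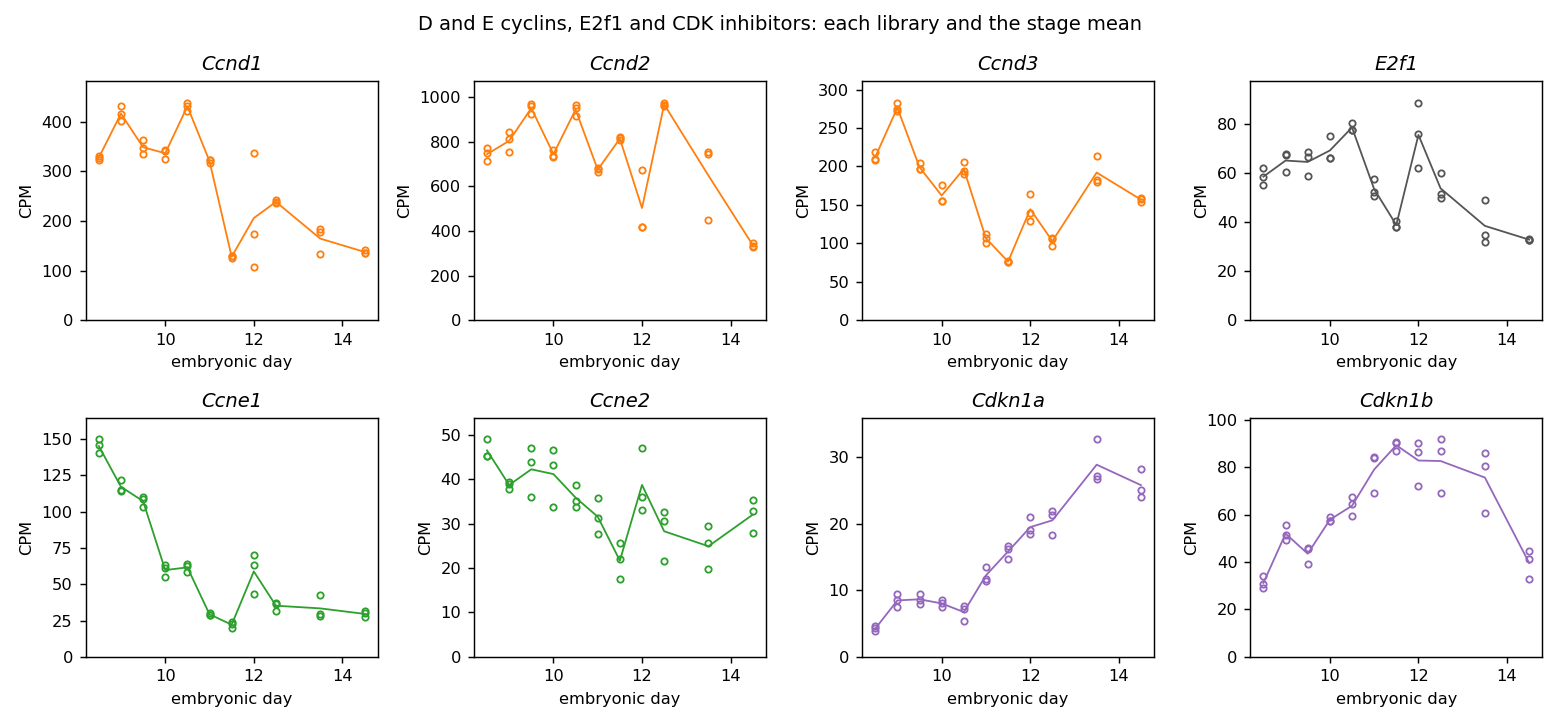
CPM of the D cyclins and E2f1 (top) and of the E cyclins and the inhibitors (bottom) by embryonic day, each circle a library and each line the mean of 3, with vertical axes that start at 0 and differ between genes. Ccnd1 dropped to 128 CPM at E11.5 while Ccnd2 stayed at 814, and Cdkn1b was highest at E11.5 while Cdkn1a was highest at E13.5.

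The number of members that changed between neighbouring stages depends on which libraries share the estimate of spread, and the values that follow use all 33. At E9, 13 of the 46 genes differed from E8.5 (20.2% of all genes): 8 fell (7.66%) and 5 rose (2515 of 20073 genes). Cdkn1a changed most there, by 1.00. At E9.5, 14 changed (22.8%), 7 up (11.1%) and 7 down (11.7%), with the largest change in Plk1, -0.73. At E10, 20 changed (26.7%), 19 of them down (12.3%) and 1 up (2905 of 20073 genes), with the largest change in Ccne1, -0.84. At E10.5, 7 changed (8.46%), all of them up (5.73%, and 2.74% down over all genes), with Plk1 changing most, by 0.56.

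With only the 6 libraries of each step these counts were 38, 32, 33 and 31, above those of the later steps into E12.5 and E14.5 in the same kind of fit, 21 and 13. With all 33 libraries the order is the reverse. With the libraries of E12, E13.5 and E11.5 left out they were 36, 27, 32 and 28. The shares of all genes called in these fits are not given here, so these counts have no background beside them. Leaving out E12 library c alone gave 23 at E9 and 13 at E10.5, and leaving out E12 library a or E13.5 library c gave 11 at E10.5. Leaving out E9 library c gave 8 at E9, and leaving out E9 library b, E9.5 library a or E9.5 library b gave 9 at E9.5.

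At E11 all 20 replication genes fell against E10.5, with 12 of 18 mitosis genes. Of the 46 genes 38 changed (36.5% of all genes): 36 fell (17.3%) and 2 rose (19.2%). Rrm2 fell most, by 1.096 ± 0.06 (adjusted p = 4.9e-15). At E11.5, 40 changed against E11 (23%): 39 fell (12.3%), among them 18 replication and 16 mitosis genes, and 1 rose (10.7%). Ccnd1 fell most, as given above. Over the 46 genes the step into E11 went with GC content at a Spearman correlation of -0.55 and with exonic length at 0.45. Over 20046 genes these were -0.16 and 0.03. For the steps into E9, E9.5, E10, E10.5 and E11.5 GC content gave 0.21, -0.66, -0.43, 0.52 and -0.05 over the 46 genes. Over 20046 genes it gave 0.14, -0.33, -0.02, 0.28 and 0.07. The part of GC content or gene length in these steps was not tested.

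In the libraries labelled E12 the sign turned. Globin genes took 1.85% ± 0.68 of the counts there, 0.288% ± 0.010 at E11.5 and 0.459% ± 0.033 at E12.5 (SD, n = 3 each), beside the ribosomal protein shares given above. A change with stage and a property of the libraries labelled E11.5 and E12 cannot be told apart. Against E11.5, 41 genes changed (68.8% of all genes): 38 rose (33.3%), among them 19 replication and 13 mitosis genes, and 3 fell (35.6%). At E12.5, 32 changed (63%): 12 rose (32%) and 20 fell (31%). At E13.5, 39 changed (53.1%): 37 fell (25.9%) and 2 rose (27.2%). Pole fell most there, by 1.297 ± 0.17. At E14.5, 27 changed (50.9%): 18 fell (26.9%) and 9 rose (24%). Cdc20 fell most there, by 1.17 ± 0.11 (adjusted p = 2.52e-10). Over the 46 genes the steps into and out of E13.5 went with exonic length at Spearman correlations of -0.48 and 0.50. With GC content they went at 0.40 and -0.48. Over 20046 genes length gave -0.08 and 0.04, and GC content 0.24 and -0.30. Library c of E13.5 stood apart in the ribosomal protein share given above. The part of these in the steps was not tested. 

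The return at E12 was uneven between genes and between libraries. Birc5, the survivin subunit of the chromosomal passenger complex, stood at 54.9, 58.4 and 55.1 CPM at E11.5, at 344, 219.9 and 126 at E12 and at 104, 97.1 and 101 at E12.5. It had the largest step, 2.03 ± 0.19 (adjusted p = 4.82e-10), and the E12 libraries differed from each other more than those of E11.5 and E12.5 did. Pole, a long gene, went the other way, from 78.7, 73.1 and 75.3 to 42.9, 40.5 and 77.5 and then 128, 132 and 142 CPM. It fell by 0.49 ± 0.17 at the first step (adjusted p = 0.0109), where library c overlapped with E11.5, and rose by 1.32 ± 0.17 at the second (adjusted p = 1.69e-07). Over the 46 genes the step into E12 went with exonic length at a Spearman correlation of -0.73, and the step out of it at 0.67. Over 20073 genes these were -0.30 and 0.31. GC content gave 0.41 and -0.32 over the 46 genes for the same steps. The part of gene length or GC content in these steps was not tested.

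**Figure D4:**
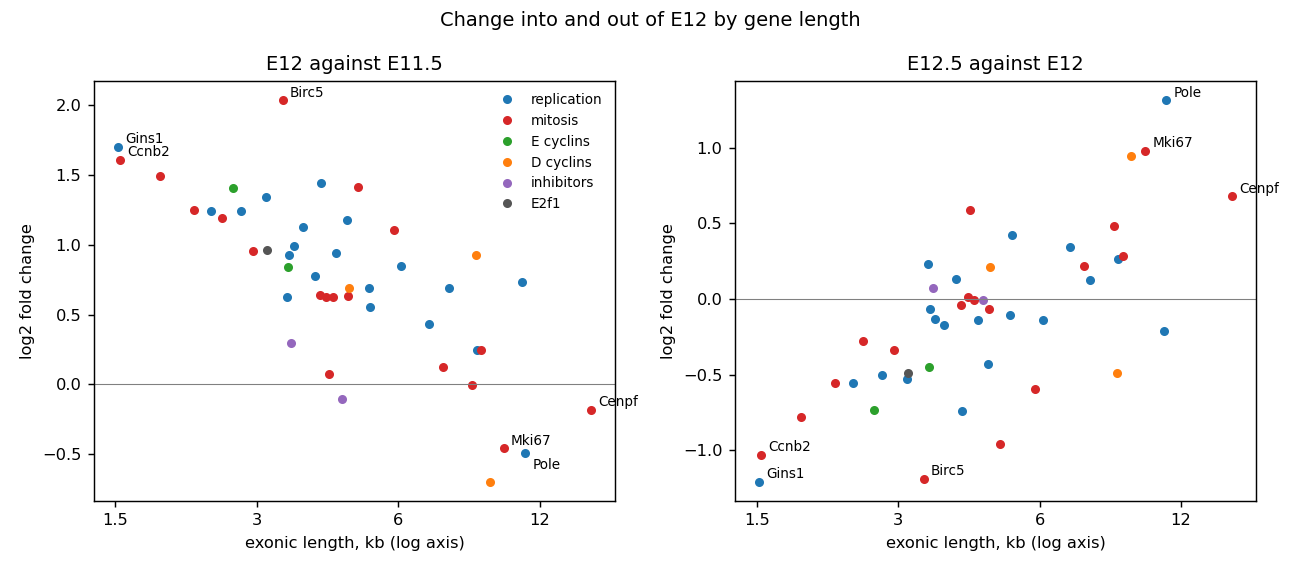
Log2 fold change into E12 (left) and out of E12 (right) against exonic length in kilobases on a log axis, each point 1 of the 46 genes coloured by group. Short genes such as Gins1 and Ccnb2 stood high at E12 and long genes such as Pole and Mki67 stood low.

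Passing over E11.5 and E12, 36 of the 46 members had no call between E11 and E12.5, where 17357 of 20073 genes had none. Of the 46 genes 10 changed in edgeR's test of E12.5 against E11, and each of them was higher, where 6.59% of all genes were higher and 6.94% lower. The medians were 0.20 for replication and 0.09 for mitosis. With the libraries of E12, E13.5 and E11.5 left out 25 genes changed in this comparison, with only the 6 libraries compared 18 did, and without E12.5 library c 6 did. The shares of all genes called in these fits are not given here. Between E11.5 and E14.5, 26 genes changed, where 51.3% of all genes did: 7 rose (26.6%) and 19 fell (24.7%), with medians of -0.14 for replication and -0.30 for mitosis. Both comparisons were chosen after the values were seen. Osteoblast markers summed to 265 to 281 CPM at E11, 496 to 524 at E11.5 and 279 to 337 at E12.5, and the 12 neuron markers to 3009.6 to 3045, 3167 to 3218 and 1800.4 to 1819.7. Their part in the low values at E11.5 was not tested.

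**Figure D5:**
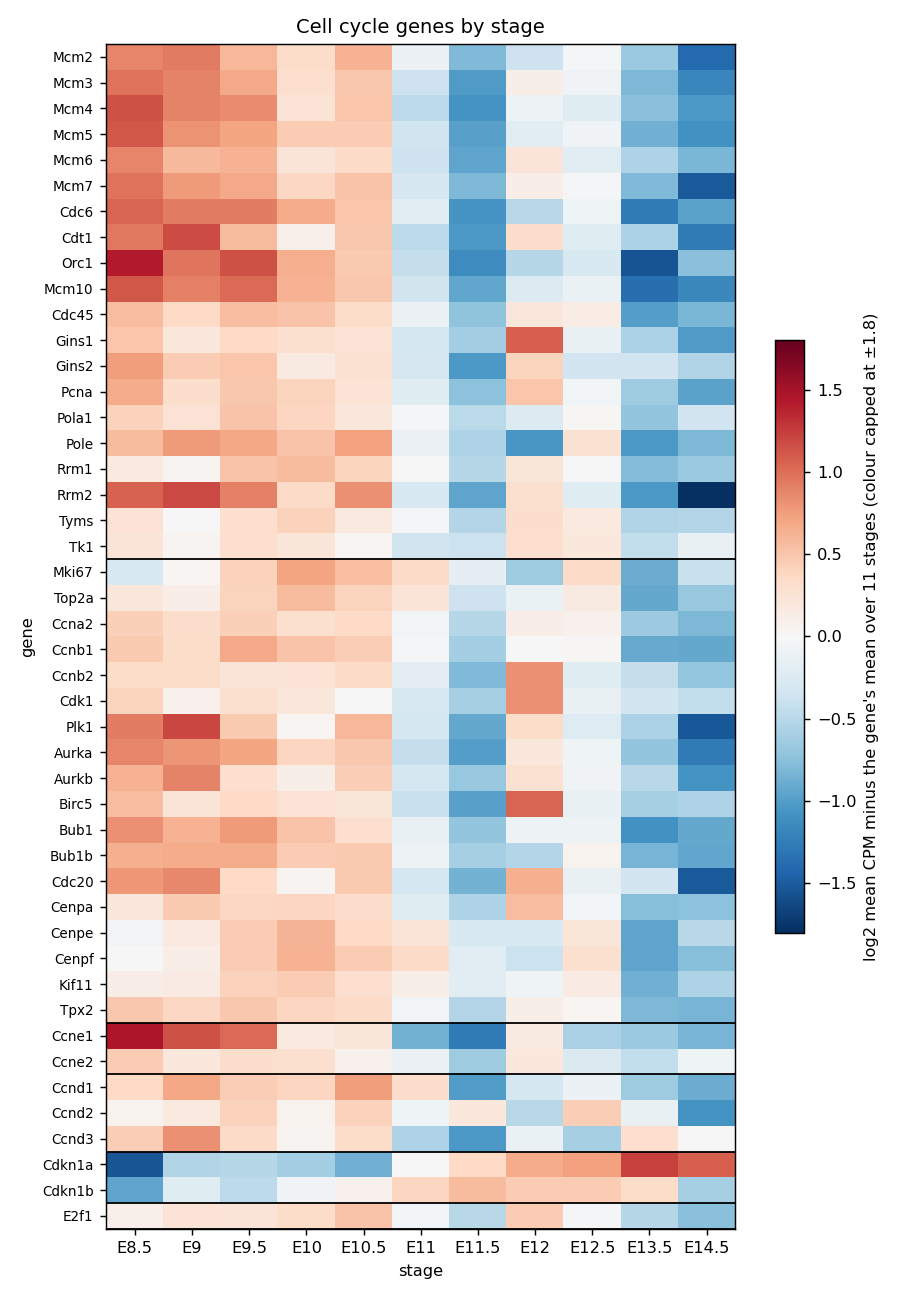
Mean log2 CPM of each of the 46 genes at the 11 stages, minus the gene's own mean over the stages; red is above that mean and blue below, and black lines part the groups in the order replication, mitosis, E cyclins, D cyclins, inhibitors and E2f1. At E11 38 of the 46 genes lie below their own mean, at E10.5 1 does, and 45 lie lower at E11.5 than at E12.5.

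Wider lists of the same pathway were described in the same way. The lists were chosen with earlier results of these data known. Of 40 further replication genes 37 fell between E8.5 and E14.5 in edgeR's test, where 33.5% of all genes did, and the others did not pass, with a median of -1.37. Dut, which removes dUTP, stood at 285, 271 and 272 CPM at E8.5, against 61.9, 53.3 and 51.7 at E14.5 (-2.31 ± 0.17), and Uhrf1, which maintains DNA methylation at the fork, changed by -2.24 ± 0.16. Of 46 further mitosis genes 42 fell, against the same 33.5%, and the others did not pass, with a median of -1.05. The largest falls were in the kinase gene Nek2, at -2.08 ± 0.08, and in Cdca8, a subunit of the chromosomal passenger complex, at -1.97 ± 0.12. By E10.5, 25 of the 40 further replication genes had fallen, where 21.3% of all genes had, and the others did not pass, with a median of -0.32. Of the 46 further mitosis genes 8 had fallen and 6 had risen, with a median of -0.00; over all genes 21.3% had fallen and 28.2% had risen, so these shares do not exceed the background.

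The E2F and pocket protein genes divided. Of 12 genes 9 fell between E8.5 and E14.5, led by E2f5 (-2.11 ± 0.10) and E2f4 (-1.83 ± 0.09), which act mainly as repressors with pocket proteins, and 2 rose, where 33.5% of all genes fell and 41.1% rose. Rbl2 (p130), the pocket protein typical of resting cells, measured 5.05, 5.68 and 6.84 CPM at E8.5, 17.1, 14.7 and 17.1 at E10.5 and 29.1, 33.4 and 30.2 at E14.5. It changed by 2.39 ± 0.15 (adjusted p = 6.75e-15). Rb1 rose as well, by 0.89 ± 0.18 (adjusted p = 5.03e-05), and was already at 40.1, 39.1 and 42.6 CPM at E10.5 against 15.4, 13.0 and 16.7 at E8.5. Rbl1 (p107) stood at means of 39.4, 73.5 and 36.5 CPM at E8.5, E10.5 and E14.5, with no call between the first and the last (adjusted p = 0.483).

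Of 6 genes of the complexes that act on mitotic promoters 3 fell, where 33.5% of all genes did, too few genes to read a share from. Mybl2 stood at 108, 107 and 110.4 CPM at E8.5, against 23.6, 20.9 and 22.7 at E14.5, a change of -2.27 ± 0.10 (adjusted p = 3.48e-18). Foxm1 stood at means of 180.4, 211, 177 and 69.1 CPM at E8.5, E10.5, E12.5 and E14.5. It changed by -1.36 ± 0.12 after E12.5 (adjusted p = 4.89e-11), against 0.22 ± 0.12 by E10.5 (adjusted p = 0.111). Of 6 G1 kinases and activators 4 fell, against the same 33.5%. Cdc25a, a phosphatase that activates Cdk2, fell most, by 1.77 ± 0.07, and Cdk4 by 1.13 ± 0.11, while Cdk6, the other partner of the D cyclins, showed -0.08 ± 0.11 (adjusted p = 0.536).

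All 4 other inhibitor genes tested rose from E8.5 to E14.5, where 41.1% of all genes did. Cdkn1c (p57), of the same family as Cdkn1a and Cdkn1b, was the most abundant of them and measured 82.7, 77.8 and 76.5 CPM at E8.5, 287, 295 and 287 at E10.5, 264, 228 and 273 at E12.5 and 869, 811 and 818 at E14.5. It changed by 3.40 ± 0.15 (adjusted p = 1.69e-18), more than Cdkn1a. Cdkn2b stood at only 0.0702, 0 and 0.175 CPM at E8.5, against 1.60, 2.20 and 1.78 at E14.5, too few counts for a fold. Of 9 further targets of p53, the factor that induces Cdkn1a upon DNA damage, 4 rose and 5 fell, where 41.1% of all genes rose and 33.5% fell. Plk2 and Trp53inp1 rose most, by 2.45 ± 0.08 and 2.19 ± 0.18, and Sesn2 fell most, by 1.60 ± 0.12. Zmat3 was next, with 73.7, 79.2 and 73.4 CPM at E8.5 and 29.0, 26.2 and 24.8 at E14.5.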

How the data were processed

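The authors deposited a table of raw counts per gene for 33 libraries beside a column of exonic lengths. According to the submitters' processing notes, reads were handled with cutadapt 1.9.1, HISAT2 2.0.1 and HTSeq 0.6.1 on GRCm38. The length, another column of the deposited table, was used only for levels per kilobase and for the length trend. The strand setting of the counting is not given in the sources used here, so reads of a gene and of an antisense partner cannot be told apart. Here, counts were filtered by expression per stage, which left 20073 genes with 99.86% to 99.96% of each library's counts, scaled by TMM (factors 0.797 to 1.18) and fitted with edgeR 4.0.16 (R 4.3.3, quasi-likelihood, 1 mean per stage, 22 residual degrees of freedom). P-values were adjusted by Benjamini and Hochberg's method over all genes within each comparison. The standard error is the fold change divided by the root of F. DESeq2 1.42.0 was run as an alternative. The scripts were tested on simulated data for E14.5 against E8.5. Of changes put in at 1.5, 2 and 4 fold, 49.3%, 88.1% and 98.5% were recovered, with 9 false calls among 19036 genes. In the simulation each gene had the same mean at every stage, apart from 67, 67 and 66 genes changed at E14.5 alone. In the data 74.6% of all genes changed in this comparison, so these rates may not hold for the calls given here. A change near 1.5 fold or smaller that did not pass may thus have been missed. The members and all lists were chosen with earlier results of these data known. Genes of the replication and mitosis groups were named by rule: the 4 largest and 3 smallest falls from E8.5 to E14.5, the extremes of the other intervals, the highest and lowest level per kilobase, the largest change of each step and the 2 largest falls and rises of each wider list; Cdc45, Gins1, Gins2, Pcna, Pole and further genes given beside them were added after their values were seen. No label links the letters of the columns to replicate numbers. No 2 libraries of a stage agreed within sampling noise (chi-square per gene of at least 1.85). Protein sequences of the D cyclins are not used here.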

Additional observations from a re-analysis of the deposited data

How the results depend on the processing

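Under 9 alternative settings and with each of the 33 libraries left out in turn, 1170 of 1210 recomputed counts stayed within 1.5 times the value given, and for the 46 genes in E14.5 against E8.5, 1923 of 1932 values kept their direction and their call. The number that fell there was 43 under every left-out library, 44 with the length trend removed and 39 with library totals alone. With library totals alone the median of all genes in that comparison moved from 0.16 to 0.59, the numbers of all genes that fell were 4265, 2728 and 2211 in E14.5 against E8.5, E10.5 against E8.5 and E12.5 against E10.5, in place of 6731, 4272 and 3444, Tk1 turned to 0.068 in the first and the mitosis median to 0.064 in the second. Leaving out the TMM factors shifts all genes of a comparison by about the same amount. These factors were 0.859 to 0.868 at E8.5 and 1.158 to 1.175 at E14.5. Why they differ was not tested.

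Removing the trend with gene length gave 1 member higher in E14.5 against E8.5, 4 higher and 32 lower in E10.5 against E8.5 (6595 of all genes lower), 26 changed at E9, and -0.083 for Rrm1 at E10.5. DESeq2 gave 20 changed at E9. Fits of only the libraries compared gave 31 lower in E10.5 against E8.5, 38, 32, 33 and 31 changed at E9, E9.5, E10 and E10.5, 21 at E12.5, 13 at E14.5 and 18 in E12.5 against E11. With the libraries of E12, E13.5 and E11.5 left out, a choice made after seeing the data, these were 31 lower and 36, 27, 32 and 28 changed, with 25 in E12.5 against E11. These settings estimate the spread from fewer libraries, and the shares of all genes called under them are not given here.

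Leaving out 1 library, the members higher ranged from 1 to 2 in E14.5 against E8.5, in E12.5 against E10.5 and in E14.5 against E12.5. Members changed ranged from 8 to 23 at E9, 9 to 18 at E9.5, 5 to 13 at E10.5 and 6 to 15 in E12.5 against E11. No pairing by column letter was seen. Same-letter deviations from the stage means correlated between -0.58 and 0.18 across stages, with a mean of -0.008 against 0.004 for different letters. Of the 33 libraries 6 lay closest to their own letter. These values cannot show whether libraries of a letter were handled together. With the letter as a replicate block every count stayed within 1.5 times. The numbers lower were 43, 20, 29 and 39 in the 4 main comparisons, and the calls of Pcna and Cenpa in E12.5 against E10.5 (adjusted p = 0.0546 and 0.0589) and of Cdk1 in E14.5 against E12.5 (adjusted p = 0.0558) were lost. The counts are deep for most members; the lowest total over the 3 libraries of a stage was 193, for Cdkn1a at E8.5.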
